A study of Mus musculus with 6 samples.

Results

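Palmitate and high glucose were compared as an addition to hypoxia, on the array labelled triple stimuli against the array labelled hypoxia, which are 2 of the 6 arrays of the series. The cells were mProx24, a mouse cell line of the kidney proximal tubule from the strain C57B6, and each of 6 conditions had 1 single-colour array. Cells of the hypoxia array were kept at 1% oxygen, and their label gives NG and PBS without spelling them out. Cells of the triple stimuli array were kept at 1% oxygen too, and their label gives HG and Pal, that is high glucose together with palmitate, at 150 µM on 0.15% bovine serum albumin for 9 hours. The low oxygen preceded palmitate by 12 hours. The labels do not say whether oxygen stayed low during those 9 hours, whether cells without palmitate received albumin, or what the glucose concentrations were. The 3 arrays at 20% oxygen were a control, also labelled NG and PBS, and one each with high glucose and with high FFAs (free fatty acids, here palmitate). The remaining array had the triple stimuli with rapamycin, at 0.4 µg/ml for 12 hours before palmitate.

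A probe was taken as measured when the scanner software called it well above background on both arrays, which held for 20690 of 55681 probes and, with 1 probe per gene name, for 15376 of 34741 gene names. A level is the log2 signal minus the log2 of its array's 75th percentile, and a difference is the level in triple stimuli minus the level in hypoxia. Genes at least 2-fold apart, a difference of 1 or more in size, are called higher or lower. Since a condition has a single array, no difference has a replicate check and none has a p-value. Among 217 probes spotted at least 5 times, the SD of the difference between spots was 0.0704 at the median and 0.24 at the 95th percentile. That is the error within an array only, and precision is limited throughout by the number of arrays.

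Palmitate is a saturated fatty acid that cells activate to acyl-CoA, store as triglyceride in lipid droplets or oxidise in mitochondria. It is a ligand source for the PPAR nuclear receptors, and in excess it stresses the endoplasmic reticulum (ER) and engages the integrated stress response, in which the initiation factor eIF2 is phosphorylated and the transcription factor ATF4 is translated. Glucose entering the cell is sensed as its phosphate by MondoA and ChREBP, factors that switch on Txnip, a brake on glucose uptake. Low oxygen stabilises the hypoxia-inducible factors (HIF), which raise glycolysis, and tubule cells are sensitive to it because they live largely on fatty acid oxidation.

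Short stretches of promoter are shown here for members of some groups described below, not all of them past 2-fold. The motif is in capitals, and the stretches run 5′ to 3′ on the strand of the gene, from RefSeq on GRCm38.p6. The first set holds the ATF4 motif TGATGNAAN on either strand in genes of the integrated stress response and in aminoacyl-tRNA synthetases, where Gars and Tars are the symbols of that table for Gars1 and Tars1.
Atf3, chr1:191183406-191183474 (- strand): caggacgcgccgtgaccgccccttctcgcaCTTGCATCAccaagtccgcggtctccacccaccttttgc
Chac1, chr2:119351018-119351086 (+ strand): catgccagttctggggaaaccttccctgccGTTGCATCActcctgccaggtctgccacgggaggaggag
Asns, chr6:7693210-7693262 (- strand): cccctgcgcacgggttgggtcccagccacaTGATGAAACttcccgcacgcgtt
Nupr1, chr7:126625543-126625611 (- strand): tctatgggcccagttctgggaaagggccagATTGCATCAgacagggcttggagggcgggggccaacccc
Pycr1, chr11:120643813-120643881 (- strand): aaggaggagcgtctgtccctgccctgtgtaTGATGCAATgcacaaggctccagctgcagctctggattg
Gars, chr6:55037940-55038000 (+ strand): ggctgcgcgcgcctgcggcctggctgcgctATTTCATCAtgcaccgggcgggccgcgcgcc
Tars, chr15:11399659-11399704 (- strand): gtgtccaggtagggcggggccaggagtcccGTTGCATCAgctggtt
The second set holds TGACGTCA, the element bound by CREB and ATF factors, in Areg, a growth factor gene, and Btg2, an immediate early gene.
Areg, chr5:91139508-91139575 (+ strand): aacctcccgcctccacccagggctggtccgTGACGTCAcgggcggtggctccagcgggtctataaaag
Btg2, chr1:134079284-134079351 (- strand): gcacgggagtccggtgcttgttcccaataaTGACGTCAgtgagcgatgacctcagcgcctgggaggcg
The third shows Txnip, with 2 copies of CACGAG, each a partial match to the E-box, 5 bases apart, and Hmgcs1, with the letters TCACNCCAC that SREBP factors bind.
Txnip, chr3:96557842-96557907 (+ strand): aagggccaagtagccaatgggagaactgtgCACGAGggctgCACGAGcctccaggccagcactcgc
Hmgcs1, chr13:119690184-119690252 (+ strand): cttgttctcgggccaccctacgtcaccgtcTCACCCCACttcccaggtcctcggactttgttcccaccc
The search covered 300 bases around each gene's start, on both strands, and only bases before the start are printed.

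Genes measured on both arrays were ranked if they had a RefSeq symbol and any other probes differed by 0.5 or more in the same direction. Among these, Txnip, Areg, Angptl4, Egr1 and Atf3 had the largest differences, from 8.36-fold to 18.4-fold. A glucose-sensing gene, a growth factor, a PPAR target and a pair of stress and growth transcription factors thus led the list. Of the 15376 gene names measured, 308 (2.0%) were at least 2-fold higher in triple stimuli than in hypoxia and 208 (1.35%) lower. With normexp, a background correction that compresses dim signals, the shares were 1.29% higher and 0.598% lower. Over bright probes, those with a mean level above the 75th percentile, 0.654% were lower. Where 1 array well above background was enough, 3.66% were higher and 3.26% lower. The median difference was -0.02, 83.5% of genes lay within 0.5 of 0, and 35 genes were at least 4-fold higher and 13 at least 4-fold lower. Of 91 called genes that had another measured probe, 65 (71.4%) had all their other probes at 0.5 or more in the same direction, 47 of 61 on the higher side and 18 of 30 on the lower.

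Txnip encodes thioredoxin-interacting protein, which curbs glucose uptake and binds thioredoxin, and its probe lies on mm9 chromosome 3 at 96365147 to 96365206. Its level was -0.87 in hypoxia and 3.33 in triple stimuli, an 18.4-fold difference (log2 difference 4.20). The control array at 20% oxygen lay between them at 0.77, and the array with rapamycin added was at 3.68. Arrdc4, the arrestin-domain relative of Txnip and like it a target of MondoA, went from 0.23 to 1.48 (1.25). The other 7 measured genes of the MondoA and ChREBP list lay between -0.50 (Khk, which phosphorylates fructose) and 0.41 (Hk2, hexokinase 2), so that the list median was -0.02, as for all genes, though over bright probes or with the mean over probes it was 0.15. The factors themselves, Mlxip (MondoA), Mlxipl (ChREBP) and their partner Mlx, differed by -0.02, -0.06 and 0.15. The other probe of Mlxipl gave 0.48. The paired CACGAG printed above occurred in 1 of 27025 promoters in the table, that of Txnip. The pair was searched after the Txnip promoter had been looked at, and CACGAG alone was in 6.52% of promoters.

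**Figure D1:**
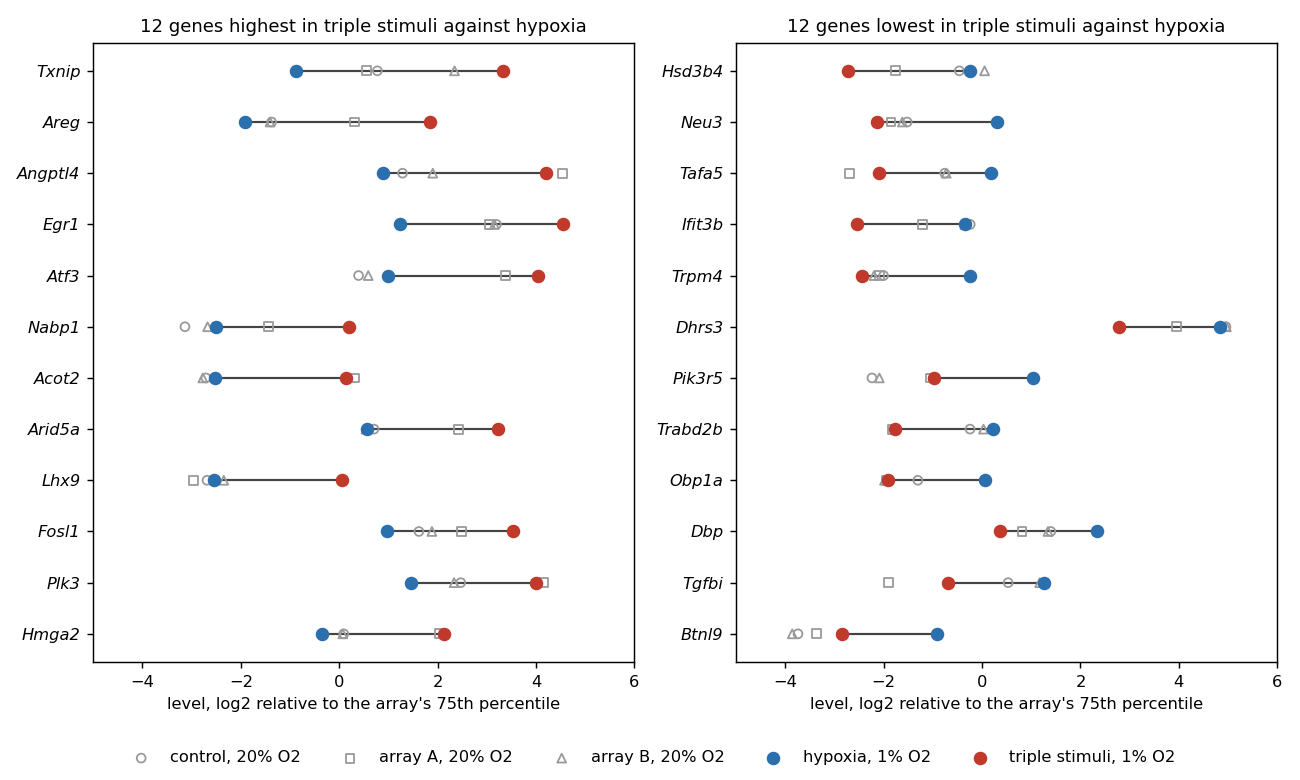
Levels (log2 signal relative to the 75th percentile of each array, horizontal axis) of the 12 genes with the largest positive and the 12 with the largest negative difference, in triple stimuli (red) and hypoxia (blue), 1 array each, joined by a line. Grey open symbols are the 3 arrays at 20% oxygen, where Btnl9 was not well above background. Txnip lay at -0.87 in hypoxia and at 3.33 in triple stimuli, and Egr1 in hypoxia (1.24) lay below all 3 arrays at 20% oxygen.

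Genes of the integrated stress response were higher as a group. Of 25 measured targets of ATF4, 10 (40%) were at least 2-fold higher, against 2.0% of all genes. In this list 0 were lower and 24 lay above 0, with a median of 0.79. Atf3, a stress-induced repressor of transcription (mm9 chromosome 1, 192994547 to 192994606), rose from a level of 0.98 in hypoxia to 4.05 in triple stimuli, an 8.36-fold difference. Ppp1r15a, the subunit that directs dephosphorylation of eIF2, went from 3.98 to 6.06 (2.08), Gdf15, a secreted stress signal, from 5.82 to 7.49 (1.68), and Trib3, a pseudokinase that restrains Akt, from 5.51 to 7.04 (1.52). The others past 2-fold were Chac1 (1.26), which breaks down glutathione, Cth (1.23), which makes cysteine, the transcription factor Cebpb (1.18), the serine and one-carbon enzymes Shmt2 (1.09) and Psph (1.02), and Sesn2 (1.01), which restrains mTORC1. Atf4 RNA itself went from 8.08 to 8.84 (0.75), and Ddit3, the death-linked factor CHOP, from 3.08 to 4.01 (0.93), short of 2-fold. Vldlr, a lipoprotein receptor, was the 1 member below 0 (-0.22).

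Genes that import amino acids and load them onto tRNA also lay mostly above 0. Over all genes the shares were 2.0% higher and 1.35% lower. Of 12 measured amino acid transporters 4 were higher, the glycine transporter Slc6a9 (level 4.56 in hypoxia, 6.17 in triple stimuli), Slc3a2 (5.84 and 7.09), which is the heavy chain shared by several transporters, the arginine and lysine transporter Slc7a1 (4.98 and 6.22) and Slc38a7 (0.67 and 1.81). The cystine importer Slc7a11 was not well above background in hypoxia and was at least 5.30-fold higher in triple stimuli, where the bound sets the dim side at the lowest signal called well above background. Slc6a19, the neutral amino acid transporter of the tubule's brush border, was lower, from -1.46 to -2.98 (-1.53). Of the 20 cytosolic aminoacyl-tRNA synthetases 19 lay above 0 with a median of 0.62, though only Wars1 passed 2-fold, from 5.08 to 6.43 (1.35; its other probe gave 1.40). Nars1 (0.89), Lars1 (0.86), Tars1 (0.84) and Sars1 (0.84) came next, and Qars1 was the 1 member below 0 (-0.24). The ATF4 motif was in the promoters of 6 of 22 ATF4 targets with a promoter in the table (Asns, Atf3, Chac1, Nupr1, Pycr1, Trib3) and of 5 of 13 synthetases (Aars, Gars, Iars, Tars, Yars in the table's symbols). It was in 4.06% of all promoters, in 2.07% of those of the 9171 measured genes matched to one, and in 11 of 187 (5.88%) of those of higher genes.

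In the ER's own stress response 4 genes were higher. They were 16.7% of the 24 measured ER chaperones and genes of the unfolded protein response, against 2.0% of all genes, and the list median was 0.14. They were Herpud1 (3.46 to 4.77), which helps clear misfolded proteins, the co-chaperone Dnajb9 (0.24 to 1.43), the transcription factor Xbp1 (4.74 to 5.84) and Hspa5 (6.76 to 7.82), which encodes the chief ER chaperone BiP. The remaining 20 lay below 2-fold, Atf6, an ER stress sensor, at 0.94 being the nearest.

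On the probe used for each gene, all 18 measured immediate early genes were above 0, with a median of 1.10. Of them 10 were past 2-fold, against 2.0% of all genes. Other probes gave -0.18 for Srf and -0.02 for Nr4a2, and 0.58 for Fosl2 and 0.72 for Ier5. Immediate early genes are switched on within minutes of a growth or stress signal. Egr1, a zinc-finger factor (mm9 chromosome 18, 35024395 to 35024454), had a level of 1.24 in hypoxia against 4.55 in triple stimuli, a 9.93-fold difference, beside 3.20 on the control array and 4.93 with rapamycin. Among AP-1 genes, Fosl1 went from 0.98 to 3.53 (2.55), Jun from 3.25 to 5.29 (2.04) and Junb from -1.07 to 0.12 (1.19), and Fos was at least 2.66-fold higher, since it was not well above background in hypoxia. Ier2 (2.34), the antiproliferative gene Btg2 (2.09), Myc (1.99), the nuclear receptor Nr4a1 (1.56), Klf6 (1.41) and Klf10 (1.02) made up the rest. TGACGTCA was in the promoters of 11 of 187 higher genes (5.88%), against 3.33% of those of measured genes and 1.78% of all promoters. The AP-1 motif TGACTCA was in 13 of 187 (6.95%), against 3.42% and 5.20%. Of the 13 promoters of immediate early genes in the table, 1 (Btg2) held TGACGTCA and 0 held TGACTCA. A match is a description of letters and was not tested as a site.

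Some feedback inhibitors and ligands of growth signalling were higher too. Over all genes the share at least 2-fold higher was 2.0%. Of 14 measured MAP kinase phosphatases and Sprouty genes 3 were higher, Dusp2 (0.83 to 2.93), Dusp4 (0.96 to 2.96) and Dusp8 (-0.32 to 1.52), all of which switch off MAP kinases, 13 of 14 lay above 0 with a median of 0.69, and Dusp5 was at least 4.77-fold higher. Dusp14 was the 1 member below 0 (-0.35). Areg, which encodes the EGF receptor ligand amphiregulin (mm9 chromosome 5, 91570090 to 91570149), stood at -1.92 in hypoxia against 1.84 in triple stimuli, a 13.6-fold difference, beside -1.38 on the control array and 0.42 with rapamycin. Hbegf, another ligand, went from 3.15 to 4.85 (1.69), whereas the receptors Egfr and Erbb2 differed by 0.31 and -0.37. The other probes of Egfr ran from -0.27 to 0.09. Only 4 of 11 genes of that list were measured on both arrays.

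Inflammatory genes under NF-kB included some of the largest bounds. Of 16 measured members 5 (31.25%) were higher, against 2.0% of all genes, 0 were lower, and the median was 0.56. Ptgs2, the inducible cyclooxygenase, went from -0.17 to 2.12 (2.29), the chemokines Cxcl1 from 0.34 to 2.47 (2.14) and Ccl2 from 2.61 to 4.19 (1.57), and Tnfaip2 from 1.22 to 3.27 (2.05). Relb, an NF-kB subunit, was at 1.08, but its other probes ran from -0.19 to 1.06. Csf2, a growth factor for myeloid cells, was at least 23.9-fold higher and the chemokine Cxcl2 at least 11.7-fold, since neither was well above background in hypoxia. Interferon-induced genes went the other way, 4 of 14 measured being lower, against 1.35% of all genes, and 0 higher. Their median was -0.62, or -0.29 over bright probes alone. Irf7, well above background in triple stimuli only, was at least 1.81-fold higher. Ifit3b fell from -0.34 to -2.55 (-2.21), Ifit3 from 0.70 to -1.11 (-1.81) and the guanylate-binding protein Gbp2 from -1.45 to -2.67 (-1.21), and Nod1, a sensor of bacterial wall fragments, from -0.37 to -1.46 (-1.09). These are genes of antiviral defence, and their median level was 0.14 in hypoxia and -1.0 in triple stimuli.

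**Figure D2:**
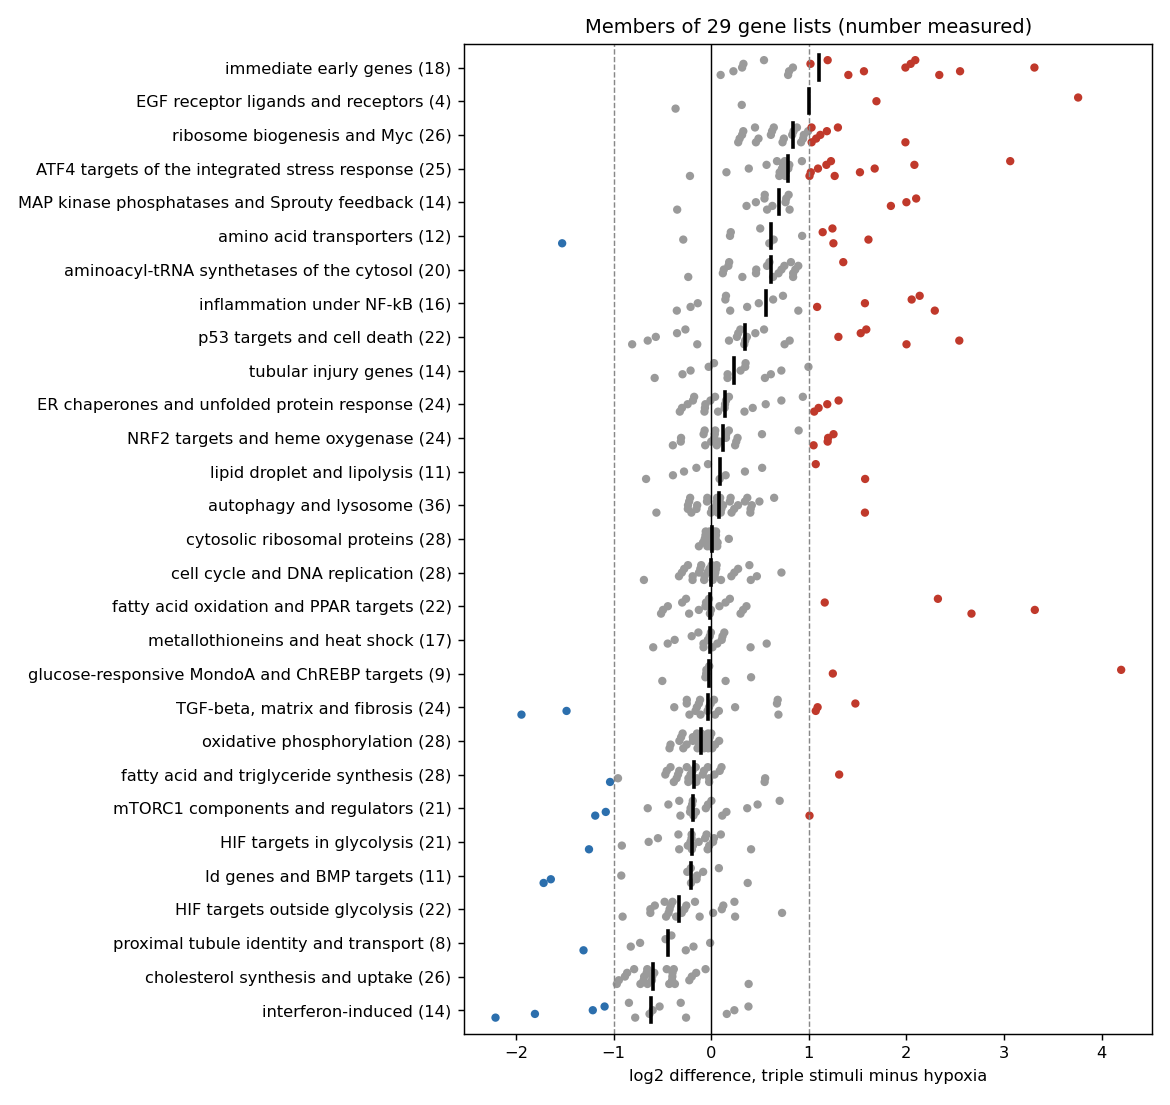
Difference in log2 level, triple stimuli minus hypoxia (horizontal axis), of each measured member of 29 gene lists, 1 point a gene, red at least 2-fold higher, blue at least 2-fold lower, with a black bar at the list median and dashed lines at 2-fold. Immediate early genes had the highest median (1.10) and interferon-induced genes the lowest (-0.62), and no cholesterol gene reached 2-fold although 25 of 26 lay below 0.

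Fatty acid handling showed a few large differences rather than a shift of the pathway. Of the 22 members measured among PPAR targets and oxidation enzymes 4 were higher, and the median was -0.01. Angptl4, a secreted inhibitor of lipoprotein lipase (mm9 chromosome 17, 33911880 to 33911939), stood at 0.89 in hypoxia against 4.20 in triple stimuli, a 9.96-fold difference, beside 1.29 on the control array. The mitochondrial thioesterase Acot2, which frees fatty acids from acyl-CoA, went from -2.52 to 0.14 (2.67), Pdk4, which inhibits pyruvate dehydrogenase, from 0.50 to 2.82 (2.32) and Cpt1a, which admits fatty acids into mitochondria, from 0.99 to 2.15 (1.16). Of members well above background on 1 array only, the thioesterase Acot1 was at least 2.82-fold higher and Cpt1b, the muscle form of Cpt1a, at least 3.63-fold lower. Of the lipid droplet genes 2 of 11 were higher, the droplet coat Plin2 (5.22 to 6.80) and Hilpda (4.0 to 5.08), which inhibits triglyceride lipase, and the sterol esterifying enzyme Soat2 was at least 5.60-fold higher. In fatty acid and triglyceride synthesis 1 of 28 measured genes was higher and 1 lower. That is 3.57% each, near the 2.0% and 1.35% of all genes, and the list median was -0.18. The higher one was Gpat3, which starts triglyceride assembly (2.76 to 4.07), and the lower one Lpin1, which makes diacylglycerol (0.57 to -0.46). Acacb, an acetyl-CoA carboxylase, was at -0.96. Dgat2, which completes triglyceride, differed by -0.67. Acsbg1, an acyl-CoA synthetase, went from -0.71 to 1.29 (2.0).

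Cholesterol synthesis and uptake had no gene past 2-fold, yet 25 of 26 measured members lay below 0, with a median of -0.59, against 46.8% of all genes above 0. Nsdhl went from 1.94 to 0.97 (-0.97), Mvd from 3.55 to 2.60 (-0.95), Idi1 from 4.84 to 3.96 (-0.88) and Hmgcs1, which begins the mevalonate pathway, from 5.86 to 5.00 (-0.86). Insig2, which holds SREBP factors in the ER, was the 1 member above 0 (0.38). The SREBP letters shown for Hmgcs1 were in 1 of 18 promoters of the list, 1.07% of those of measured genes and 1.22% of all.

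Both lists of HIF targets lay a little below 0. Of 21 measured HIF targets in glycolysis 17 were below 0, with a median of -0.20, and of 22 HIF targets outside glycolysis 16, with a median of -0.33. Pfkfb3, which activates phosphofructokinase, went from 2.54 to 1.29 (-1.25), but its other probe gave 0.09. Aldoc (-0.92), Pdk1 (-0.64), Zfp395 (-0.91) and the collagen hydroxylase P4ha1 (-0.62) were lower by less than 2-fold, the transferrin receptor Tfrc was above 0 (0.73), and Slc2a1, the glucose transporter GLUT1, Ldha, Vegfa and Gapdh lay between -0.06 and 0.02. Other probes gave -0.30 for Ldha, 0.21 for Vegfa and -0.25 to 0.01 for Gapdh. Both arrays were at low oxygen. Levels were high on both for Pgk1 (9.16 and 8.82) and Ldha (9.18 and 9.14), which stood at 7.36 and 8.49 on the control array. Not all members were bright, as with Car9 (-1.33 and -1.73).

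Genes of ribosome assembly lay above 0 together, and the ribosomal proteins stayed near it. Of all genes, 2.0% were at least 2-fold higher. All 26 measured genes of ribosome biogenesis and Myc were above 0, 7 at least 2-fold, with a median of 0.84, though the 10 of them in the last 2 of 6 bands of spot rows had a median of 0.32. Besides Myc (1.57 to 3.56) these were Rrs1 (1.11 to 2.41), Gnl3 (1.37 to 2.55), Wdr43 (2.61 to 3.73), Ppan (3.20 to 4.27), Nop58 (3.76 to 4.79), which belongs to the small nucleolar ribonucleoprotein, and Rrp12 (-0.66 to 0.36). The 28 cytosolic ribosomal proteins lay between -0.13 and 0.18 with a median of 0.00, Rpl10a (0.18), Rpl11 (-0.13) and Rps4x (-0.08) furthest out, and the 28 cell cycle genes had a median of -0.01 with 0 past 2-fold. Cyclin Ccnd1 (2.68 to 3.40), E2f1 (3.57 to 2.88) and E2f2 (2.53 to 3.0), which drive entry into S phase, lay furthest from 0. Oxidative phosphorylation was close to level, 24 of 28 subunits lying below 0 with a median of -0.10, led by Cox7a2 (-0.43), Ndufb3 (-0.42) and Sdhc (-0.33), which belong to respiratory complexes. Among regulators of mTORC1, Sesn2 (1.01) was higher and the inhibitor Deptor (1.25 to 0.06) and Ddit4l (0.06 to -1.02) lower.

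Some targets of p53 and of NRF2 were higher, while the medians of their lists were 0.34 and 0.12. Of 22 measured p53 targets and death genes 5 were higher, the kinases Plk3 (1.46 to 4.01) and Plk2 (2.33 to 3.63), the stress gene Gadd45a (1.78 to 3.78), Pmaip1 (2.88 to 4.46), the death activator NOXA, and Phlda1 (3.69 to 5.22). The p53 targets Cdkn1a (0.35), Mdm2 (0.26) and Bax (0.30) were within 2-fold, and Ccng1 (-0.57) and Sesn1 (-0.65) lay below 0. Of 24 targets of the oxidant sensor NRF2 4 were higher (16.7%, against 2.0% of all genes) and 7 lay below 0. The higher ones were Hmox1, heme oxygenase (6.16 to 7.35), Osgin1 (1.70 to 2.95) and the glutathione transferases Gsta2 (0.54 to 1.74) and Gsta3 (-2.72 to -1.67). Nqo1 (0.15), Gsr (0.04) and Gclc (-0.31) were within 2-fold. Sqstm1, the autophagy adaptor p62, was the 1 higher gene of 36 in autophagy and lysosome (2.78%, near the 2.0% of all genes; 3.22 to 4.80), followed by the lysosomal regulator Mitf (0.64) and the autophagy kinase Ulk2 (-0.56). Of 17 metallothionein and heat shock genes 0 passed 2-fold, the chaperone Hspa1a (-0.59), the zinc exporter Slc30a1 (0.57) and Mt1 (-0.45, other probe -0.80) lying furthest from 0.

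Matrix and developmental genes held members on both sides. Of all genes measured, 2.0% were higher and 1.35% lower. In the TGF-beta and matrix list 2 of 24 were lower, Tgfbi (1.25 to -0.69), a TGF-beta-induced matrix protein, and Thbs1, thrombospondin (2.66 to 1.18), and 3 were higher, Snai2 (-2.21 to -0.73), Ccn1 (4.06 to 5.15) and Ccn2 (4.47 to 5.54). Id3, which sequesters basic helix-loop-helix factors, went from 3.98 to 2.26 (-1.72) and the Notch target Hey1 from 0.12 to -1.52 (-1.64), 2 of 11 in their list, while Id2 differed by -0.92 and Id1 by -0.15. Dhrs3, which reduces retinaldehyde (mm9 chromosome 4, 144517485 to 144517544), went from 4.83 to 2.78, a 4.15-fold difference, and the control array was at 4.96. Dbp, a clock output factor, went from 2.34 to 0.36 (-1.98), with its other probe at -1.75. Among genes measured on both arrays with a RefSeq symbol and no other probe in disagreement, Hsd3b4, a steroid dehydrogenase, had the largest negative difference (-0.25 to -2.72, or -2.47). It was followed by the sialidase Neu3 (-2.42), Tafa5 (-2.29), Ifit3b and the cation channel Trpm4 (-2.19). Pik3r5 (-2.0), Trabd2b (-2.0), Obp1a (-1.98) and Btnl9 (-1.93) came further down.

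The cells were checked against markers of the tubule. Of 12 proximal tubule markers 7 were well above background on both arrays (Aqp1, Cdh16, Cubn, Ggt1, Lrp2, Pax8, Slc4a4), and the transporters Slc5a2, Slc34a1, Slc22a6 and Slc22a8 and the factor Hnf4a were not. Markers of other cell types were measured on both arrays for 0 of 7 fibroblast, 1 of 6 podocyte, 1 of 6 endothelial, 3 of 7 immune, 1 of 6 distal and 1 of 7 collecting duct genes. Of these 7, the immune marker Cd68 was higher (-0.57 to 0.52, or 1.08; -0.87 on the control array and 1.05 on the array whose scanner file is labelled high glucose) and the podocyte marker Synpo lower (0.04 to -1.03, or -1.07). The remaining 5 lay between -0.46 (Aqp2) and 0.20 (Pvalb). Not all of these were dim. Levels in hypoxia were 3.3 for the endothelial marker Kdr and 3.4 for the immune marker Itgam. Cd3e (0.3), Aqp2 (-1.3) and Pvalb (-2.5) were lower. Proximal tubule markers ran from -1.4 (Ggt1) to 7.2 (Cdh16) there, with Lrp2 at 3.7. The part of other cell types in the inflammatory genes was not tested. All 8 measured genes of proximal tubule identity and transport lay below 0, with a median of -0.44. Lrp2, the endocytic receptor megalin, stood at 3.74 in hypoxia against 2.43 in triple stimuli (-1.31), the water channel Aqp1 at 3.09 and 2.27 (-0.82) and Cdh16, a kidney cadherin, at 7.17 and 6.44 (-0.73). Slc3a1, a cystine transporter subunit, was at least 4.82-fold lower. Of 14 injury genes 0 passed 2-fold, the repair factor Sox9 (-0.50 to 0.49), the adhesion receptor Cd44 (1.97 to 2.69) and the keratin Krt19 (5.83 to 6.44) lying furthest from 0. Havcr1, which encodes KIM-1, differed by -0.29.

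Further genes high in the order were Nabp1 (2.69), a single-stranded DNA binding protein, Arid5a (0.57 to 3.23), which stabilises inflammatory mRNA, Lhx9 (2.60) and the chromatin protein Hmga2 (2.48, other probe 2.64). Lhx9 lay between -2.96 and -2.35 on the other 5 arrays, rapamycin included, and at 0.06 in triple stimuli, and its other probe differed by 2.76. The first 64 of 384 rows of spots held more called genes than the rest, 2.68% higher and 2.68% lower, against 1.38% to 2.19% and 0.74% to 1.47% in the other 5 bands. Nabp1, Lhx9, Plk3, Hmga2, Neu3, Trpm4 and Pik3r5 lay in those rows, as did, among the called list members, Shmt2, Gdf15, Slc6a9, Hspa5, Ier2, Nr4a1, Dusp2, Dusp8, Gsta2, Gadd45a, Gnl3, Sqstm1, Gbp2 and Deptor. The part of spot position in their values was not tested. Olfr1311, at least 13.3-fold higher, and Il12rb2, Caps2 and Meioc, at least 15.4-fold, 12.4-fold and 11.7-fold lower, were measured on 1 array only and lay there too.

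The same stimuli had been given singly at 20% oxygen, and these arrays share none with the comparison at 1%. Which of them had glucose and which palmitate is not settled, because the scanner file labelled high glucose holds the values that the deposited value table gives under high FFAs, and the reverse. They are therefore called array A (high glucose in the scanner file) and array B (high FFAs in the scanner file), and the sum of their differences from control does not depend on the labels. Triple stimuli and array A lay in the second column of the slide and hypoxia and control in the first, so that slide column and stimulus cannot be told apart in either difference.

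Over 15166 genes measured on the 5 arrays, the difference at 1% oxygen correlated with array A against control (Pearson r 0.631, Spearman rho 0.598) and hardly with array B (r 0.05, rho 0.04). The points are genes of the same 5 arrays and are not independent. Of 294 genes higher at 1% oxygen (1.94%), 101 were also at least 2-fold higher on array A, 34.4% of the 294 and 55.8% of the 181 genes higher on A (1.19%). On array B 2 of its 13 higher genes (0.0857%) were among them. Of 187 lower genes (1.23%), 31 were lower on array A, 16.6% of the 187 and 43.1% of its 72 (0.475%). Against the sum of both arrays the counts were 108 of 250 higher genes (1.65%) and 43 of 152 lower (1.0%). Genes with the largest smaller difference in both settings were Angptl4 (3.32 at 1% oxygen, 3.86 for the sum at 20%), Atf3 (3.06, 3.18), Acot2 (2.67, 2.95), Nabp1 (2.69, 2.16), Snhg12 (2.43, 2.15), Ppp1r15a (2.08, 2.59), Acsbg1 (2.0, 2.11) and Hmga2 (2.48, 1.93). On the lower side they were Tafa5 (-2.29, -1.91), Tgfbi (-1.95, -1.79), Id3 (-1.72, -1.67), Slc6a19 (-1.53, -1.54), Thbs1 (-1.48, -2.03), Obp1a (-1.98, -1.32), Trabd2b (-2.0, -1.31) and Cyp1a1 (-1.25, -1.42).

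**Figure D3:**
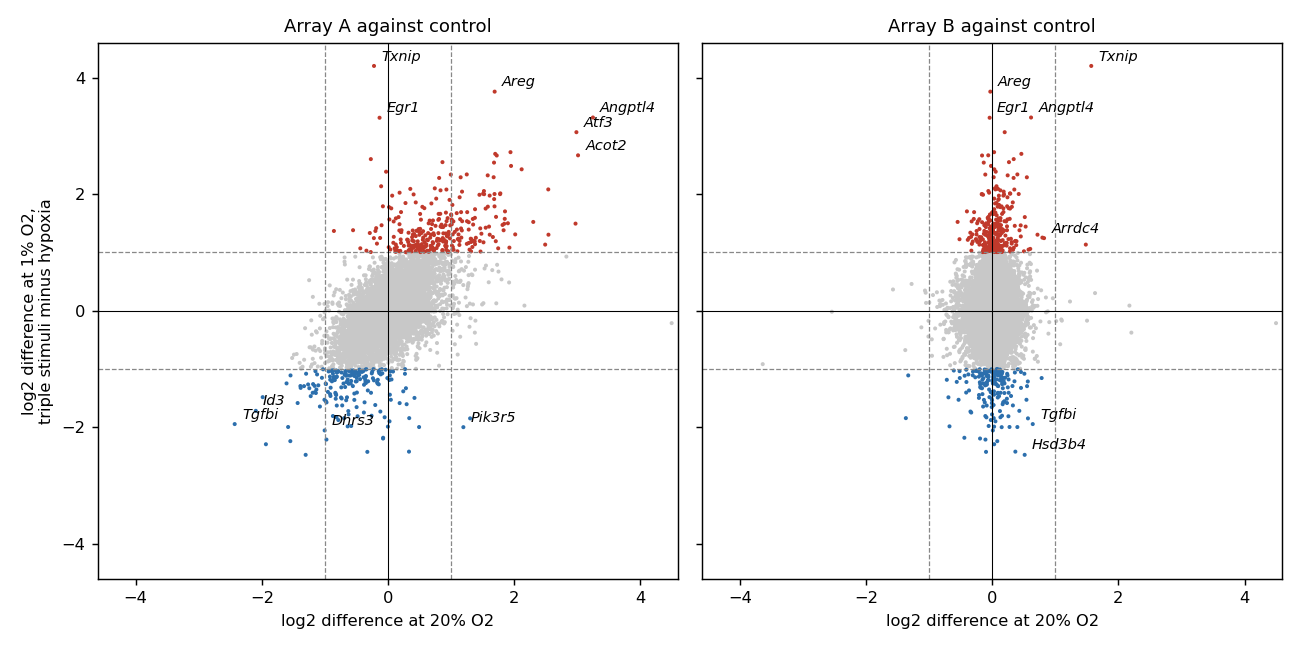
Difference in log2 level at 1% oxygen, triple stimuli minus hypoxia (vertical axis), against array A minus control (left) and array B minus control (right) at 20% oxygen, 1 point for each of 15166 genes, red and blue where at least 2-fold higher or lower at 1% oxygen, dashed lines at 2-fold, with 1 gene beyond the axes. Angptl4, Atf3 and Acot2 lay far from 0 on array A, Txnip (1.57) and Arrdc4 (0.82) on array B, and Egr1 on neither.

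By group, the medians at 1% oxygen and on array A were close for ATF4 targets (0.79 and 0.95), amino acid transporters (0.62 and 0.66), aminoacyl-tRNA synthetases (0.62 and 0.53) and interferon-induced genes (-0.62 and -0.47). They were further apart for immediate early genes (1.10 and 0.46), NF-kB genes (0.56 and -0.04), the 4 EGF ligands and receptors (1.0 and 0.15; 0.31 here over the 3 bright ones) and cholesterol synthesis (-0.59 and -0.21), and on array B none of these 8 medians was outside -0.25 to 0.10. For cholesterol synthesis array B gave -0.25, so that both single-stimulus arrays lay below 0 by similar amounts. Txnip was the reverse, at -0.22 on array A and 1.57 on array B. Whether the differences at the 2 oxygen levels themselves differ could not be tested with 1 array each. Some genes at least 2-fold higher on array A lay within 0.5 of 0 here. Mt1 and Mt2, metal-binding proteins, were 1.14 and 1.49 on array A and -0.45 and 0.11 at 1% oxygen. The other probe of Mt1 gave -0.80 at 1% oxygen, outside that range. Ndrg1 was at 1.35 and 0.11, Eno2 at 1.31 and -0.13, Ak4 at 1.29 and -0.27 and Vegfa at 1.10 and 0.02. All these genes were chosen after their values were seen.

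**Figure D4:**
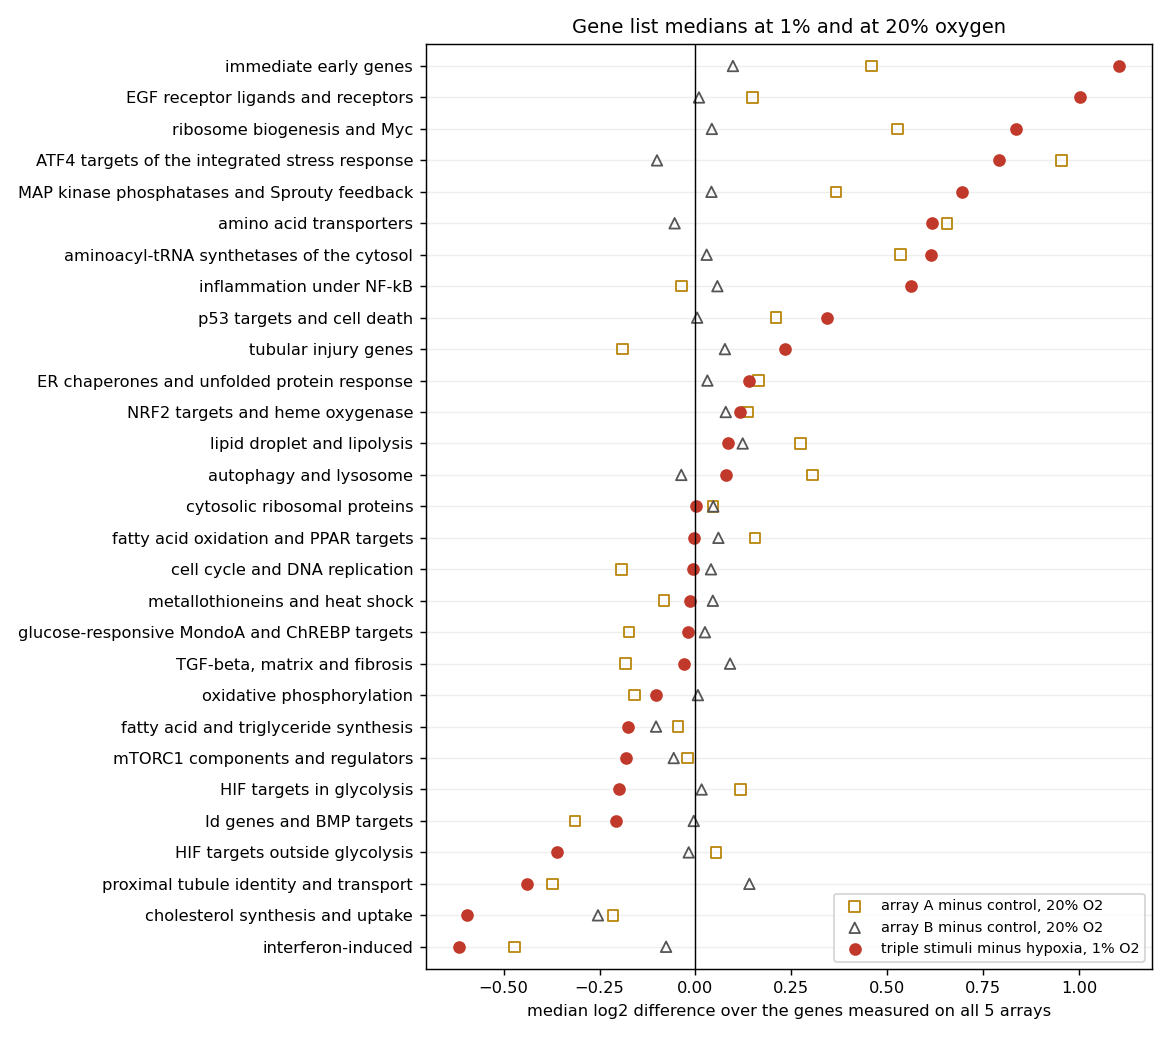
Median log2 difference (horizontal axis) of each of 29 gene lists over the genes measured on 5 arrays, for triple stimuli minus hypoxia at 1% oxygen (red), array A minus control (open squares) and array B minus control (open triangles) at 20% oxygen, 1 array per condition. ATF4 targets had 0.79 in red and 0.95 on array A, and immediate early genes 1.10 and 0.46.

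Genes that stayed within 0.5 of control on both single-stimulus arrays numbered 13265, and 82 of them (0.618%) were higher and 66 (0.498%) lower at 1% oxygen, against 1.94% and 1.23% of all 15166 genes. The examples that follow, with levels above the 75th percentile on average, were chosen after their values were seen. Besides Egr1, Cxcl1 and Hbegf they included the urea transporter Slc14a1 (0.53 to 2.51), the aldosterone-induced kinase Sgk1 (-0.03 to 1.54), Phlda1, the GTPase Rrad (-0.69 to 0.72), the ephrin receptor Epha2 (4.61 to 5.96), Ccn1 and Ccn2. Their control levels were 1.36 for Slc14a1, 0.85 for Sgk1, 0.08 for Rrad and 5.15 for Epha2, in each case between the hypoxia and the triple stimuli array, as 3.20 was for Egr1. On the lower side the cadherin Cdh6 (2.61 to 0.96), the sulfotransferase Sult1c2 (1.21 to -0.20) and Ncam1 (2.0 to 0.83) were among them.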

How the data were processed

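The authors hybridised Cy3-labelled cRNA of mProx24 cells to single-colour Agilent arrays, 1 per condition, with Agilent Feature Extraction 10.7.3.1 as the reader, per the submitters' processing notes. The scanner files the authors deposited hold a linear intensity per spot, background-subtracted and without scaling between arrays, per the file headers. In the authors' value table the unit is a ratio, the same signal over a 75th percentile of its array; there the columns of the arrays with high glucose and with high FFAs are exchanged relative to the scanner files, and those of triple stimuli and hypoxia are not. All 6 arrays are on 1 slide, those at 1% oxygen in its second row. Between 40.3% and 43.8% of 59305 spots per array were well above background and 0 were saturated.

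Analyses started from the processed signal. Spots that the scanner software marked as outliers on either array were left out, which left 55677 probes. From the log2 signal the array's log2 75th percentile over non-control spots was subtracted, and the result averaged over a probe's spots. The probe with the highest mean over 6 arrays stood for each gene. Probes were named through RefSeq, 27235 by accession, 3581 by symbol and 565 by synonym, and 24300 kept the file's name. Probe positions are mm9, as the files give them. Python 3.11.15, numpy 2.4.6, pandas 2.3.3 and statsmodels 0.14.6 were used, with limma 3.58.1 in R 4.3.3 for one alternative, and the calling was tested on simulated data.

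The members, the 29 gene lists and the tests were chosen with earlier results of these data known. Named were the 12 largest and smallest differences with a RefSeq symbol and no other probe under 0.5 in that direction, 3 bounds per direction, list members past 2-fold (or the largest up to 3), and the 8 per direction shared with 20% oxygen, besides up to 5 of opposite direction; genes outside that rule are named as completing a list or as chosen after their values were seen. The CACGAG motif was added after values were seen. In total 10 alternatives were planned and 1 was added.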

Additional observations from a re-analysis of the deposited data

Results flagged for a closer look

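Pik3r5, which encodes a regulatory subunit of phosphoinositide 3-kinase gamma, was at least 2-fold lower in triple stimuli than in hypoxia and at least 2-fold higher in the sum of the single-stimulus differences at 20% oxygen, and it was picked out for these opposite directions. Its log2 difference was -2.0 at 1% oxygen, from a level of 1.03 in hypoxia to -0.97, and 1.34 for the sum, with 1.19 on array A and 0.15 on array B from a control level of -2.24. It was the 1 gene of opposite direction under the naming rule. The difference between the oxygen levels was not tested, the probe is the only one measured for the gene, and it lies in row 61, within the first 64 rows of spots.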

How the results depend on the processing

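No paired analysis was possible because each condition has 1 array. Of 318 list medians recomputed under the 11 alternatives 278 moved by less than the spot error of 0.0704, as did 1217 of 1318 values of 132 named genes, and 0 changed sign where they were beyond that error. The alternatives were unlike in this. Normexp moved 71 of the 132 named genes by more than the spot error, and the mean over probes moved 13. The share of genes higher, 2.0% as reported, was 1.29% with normexp background correction, which compresses dim probes, and 3.66% where 1 array well above background was enough. The share lower, 1.35% as reported, was 0.598%, 3.26% and, over bright probes, 0.654%. Without the first band of spot rows, chosen after seeing the data, the shares were 1.87% and 1.09%.

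Medians moved as follows, and the cause was not tested beyond the smaller sets that some alternatives leave. With normexp they were 0.54 for amino acid transporters, 0.99 for immediate early genes, 0.55 for MAP kinase phosphatases, -0.51 for cholesterol, -0.26 for HIF targets outside glycolysis, -0.47 for interferon-induced and -0.35 for proximal tubule genes. Over bright probes they were 0.76 for amino acid transporters, 1.02 for immediate early genes, 0.31 for the 3 EGF ligands and receptors left, 0.63 for NF-kB, 0.35 for lipid droplet, 0.15 for MondoA and ChREBP, -0.29 for interferon-induced, -0.11 for mTORC1 and -0.60 for proximal tubule genes. With dim sides raised they were 1.21 for immediate early genes, 0.75 for EGF and 0.73 for NF-kB. The mean over probes gave 0.87 for EGF, 0.15 for MondoA and ChREBP and -0.37 for proximal tubule genes.

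In the last 2 bands of spot rows, which hold 4 to 12 genes of these lists, the medians were 0.90 for ATF4 targets, 0.42 for aminoacyl-tRNA synthetases, 0.25 for ER chaperones, 0.84 for immediate early genes, 0.45 for MAP kinase phosphatases, 0.73 for NF-kB, 0.33 for lipid droplet, -0.44 for cholesterol, -0.23 for HIF targets outside glycolysis, 0.041 for NRF2, 0.060 for metallothioneins and heat shock, 0.32 for ribosome biogenesis, -0.53 for interferon-induced and 0.35 for injury genes. Without the first band they were 0.93 for immediate early genes, 0.49 for NF-kB, -0.50 for cholesterol and 0.063 for MondoA and ChREBP. Depth and replication limit all values alike: a difference rests on 1 array a side, and genes dim on both arrays were not measured.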

Other observations

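Host genes of small nucleolar RNAs, a list chosen after values were seen, were higher. These are spliced RNAs whose introns carry the guides that modify ribosomal RNA, and the spliced RNA is mostly short-lived. Of 12 measured on both arrays 7 were at least 2-fold higher and 0 lower, with a median of 1.44. Among all genes 2.0% were higher and 1.35% lower. Snhg12 went from a level of 2.79 in hypoxia to 5.22 in triple stimuli (2.43), Snhg16 from 3.89 to 5.87 (1.98, though its other probe gave 0.47), Snhg1 from 2.21 to 4.13 (1.92), Snhg5 from -1.52 to 0.27 (1.79), Snhg17 from 0.17 to 1.91 (1.74), Zfas1 from 4.79 to 6.26 (1.47) and Gas5 from 3.87 to 5.28 (1.41, other probes 0.37 to 0.58). Snhg18 went the other way, from 1.60 to 0.72 (-0.88). The list median at 20% oxygen was 1.27 on array A and 0.11 on array B.

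Clock genes, also chosen after values were seen, differed mainly in the factors that bind D-box elements. Dbp (-1.98) and Tef (4.35 to 3.17, or -1.18), which activate through the D-box, were lower, and Nfil3, which represses through it, was higher (3.57 to 5.00, or 1.43). The core clock genes Per1 (0.04), Clock (0.34), Arntl (0.54), Cry2 (0.40), Nr1d2 (0.12) and Nr1d1 (-0.58) were within 2-fold. So were Bhlhe40 (-0.46), Bhlhe41 (-0.11) and Ciart (0.44). In all, 1 of 12 measured was higher and 2 lower, beside 2.0% higher and 1.35% lower among all genes.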
